A study of Phormium tenax with 2 samples.

Results

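The subject is a set of 5 unigenes of monolignol synthesis in leaves of Phormium tenax (New Zealand flax), 4 assigned to cinnamyl-alcohol dehydrogenase (CAD) and 1 to caffeoyl-CoA O-methyltransferase (CCoAOMT), out of 75265 unigenes in all. A unigene is a cluster of assembled transcripts that stands in for a gene when no genome is used. The 5 were taken by identifier from those the study lists under phenylpropanoid biosynthesis because their log2FC reached 2 in either direction at a false discovery rate below 0.01 in these same libraries. The direction and size of their differences are therefore a description of chosen unigenes and not a test. The deposited tables hold no gene names, so the enzyme names rest on the study's annotation. Its table lists more identifiers than enzymes for this pathway, and the enzyme of each identifier was read from the order of the list together with the directions that the study's text gives for each enzyme. A further identifier of that list, c38538.graph_c0, could belong to the peroxidases or to CCoAOMT and was left unassigned.

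The data are 2 RNA-seq libraries from leaf blades of plants aged 1 year, 1 library for drought (T01) and 1 for the normal condition (T02, the control). The drought plants were left without watering until the soil had dried to 25% of saturation, were held there for 10 days and were then harvested. The control plants stayed at 70% of saturation throughout. Each library was pooled in equal amounts from the RNA of 3 plants, and neither genotype nor cultivar is given in the sources used here. A single pool per condition gives no measure of how plants vary, so every interval given is a 95% interval for counting error only and each comparison is between libraries. The depth was 17744093 reads for drought and 18540664 for the control, as sums of the estimated counts. In bulk leaf RNA, fewer cells of a type and less RNA per cell cannot be told apart, and the leaf label could not be checked against marker genes for want of gene names.

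Monolignols are the alcohols from which plants build lignin, the polymer that stiffens and waterproofs the walls of vessels and fibres. CCoAOMT acts in the middle of the pathway, where it methylates caffeoyl-CoA to feruloyl-CoA. CAD acts at the end, where it reduces cinnamaldehydes to the monolignols, which peroxidases and laccases then oxidise and join in the cell wall. Phormium leaves are known for their strong, lignified fibres.

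The CCoAOMT unigene and the CAD unigenes moved in opposite directions. This was known when they were chosen and was used in assigning identifiers to enzymes. The level of the CCoAOMT unigene c54553.graph_c0 was 6.41 TPM in the control library and 35.58 TPM in the drought library, where TPM is an abundance adjusted for unigene length and sequencing depth, with the same sum over all unigenes in both libraries. The 4 CAD unigenes together had a level of 144.89 TPM in the control library and 29.22 TPM in the drought library. The CCoAOMT level was thus higher in drought, and the level of every CAD unigene was lower.

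**Figure D1:**
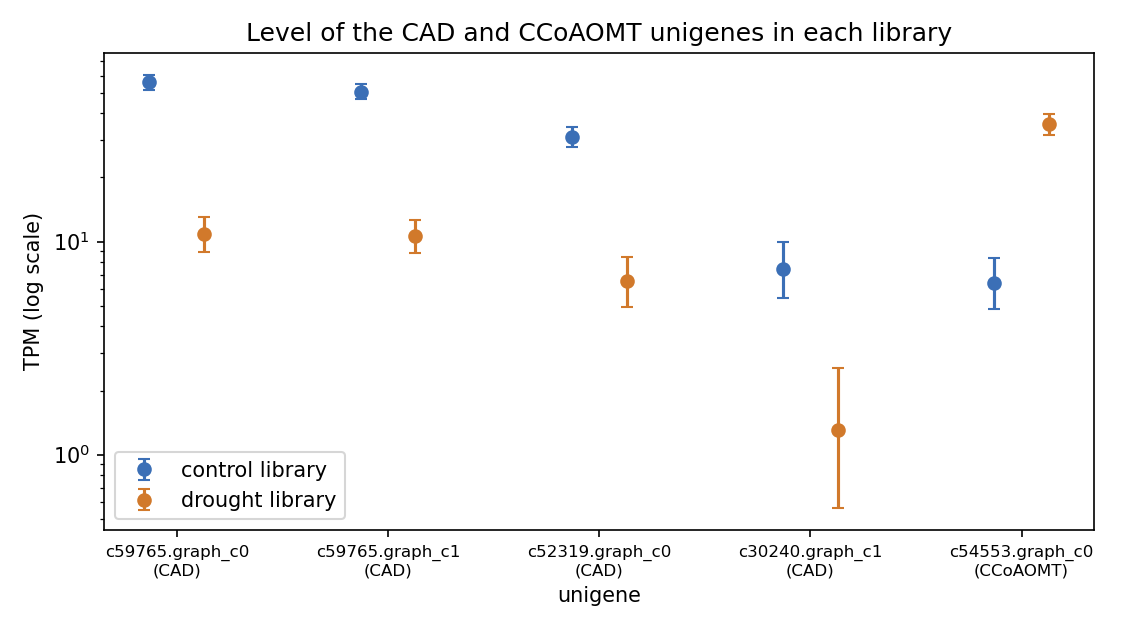
TPM of each unigene (log axis) in the control library (blue) and the drought library (orange), with 95% Poisson intervals for counting error as bars. The CAD unigenes lie between 7.43 and 55.86 TPM in the control library and between 1.30 and 10.82 TPM in the drought library, while CCoAOMT goes from 6.41 to 35.58 TPM.

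For CCoAOMT, c54553.graph_c0 is a unigene of 3 transcripts with a mean length of 606.96 bp in the control table and 595.40 bp in the drought table. It had 55 control reads and 304 drought reads. Its control level of 6.41 TPM (Poisson interval 4.83 to 8.34) stood above that of 70.1% of the unigenes with control reads. Its drought level of 35.58 TPM (interval 31.7 to 39.8) stood above that of 91.2% of the unigenes with drought reads. The counting intervals of the levels do not overlap, which the choice of this unigene by the same difference had largely fixed. After TMM scaling, which allows for differences in composition between libraries, and with 1 read added to each count, the log2FC of drought over control was 2.22, or 4.67-fold higher (interval of the log2FC 1.82 to 2.68). It is the member nearest to the threshold of 2, and its interval includes that threshold.

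Among the CAD unigenes, c59765.graph_c0 (705 bp, 1 transcript) had the highest level in both libraries. It had 55.86 TPM in the control library (interval 51.4 to 60.6) and 10.82 TPM in the drought library (interval 8.91 to 13.02). These levels come from 568 and 112 reads. It went from above 94.1% of the unigenes with reads in the control library to above 78.2% in the drought library.

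The second unigene of the same Trinity component, c59765.graph_c1 (828 bp, 1 transcript), followed c59765.graph_c0 closely in both libraries. Its level was 50.54 TPM in the control library (interval 46.6 to 54.7) and 10.59 TPM in the drought library (interval 8.85 to 12.6). The deposited control count, 614.55, is not whole, so part of it was assigned by estimation. The ratio of c59765.graph_c0 to c59765.graph_c1 in TPM was 1.11 in the control library (interval 0.984 to 1.24) and 1.02 in the drought library (interval 0.787 to 1.33). Both intervals include a ratio of 1, so the order of these neighbours was not detectable at this depth. Whether the pair are separate genes or parts of 1 transcript cannot be told without their sequences. If they are parts of 1 transcript, the summed CAD TPM and the share of the pair in it count that transcript more than once.

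The third CAD unigene, c52319.graph_c0 (3 transcripts), lay below the pair in both libraries. Its level was 31.06 TPM in the control library (interval 27.8 to 34.6) and 6.51 TPM in the drought library (interval 4.94 to 8.42), from 338 and 58 reads. The TPM ratio of c59765.graph_c1 to c52319.graph_c0 was 1.63 in each library, with intervals of 1.42 to 1.86 in the control and 1.19 to 2.26 in drought. This order therefore held beyond counting error in both.

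The fourth, c30240.graph_c1 (451 bp, 1 transcript), was the least abundant CAD unigene. Its level was 7.43 TPM in the control library (interval 5.42 to 9.94) and 1.30 TPM in the drought library (interval 0.561 to 2.56). With 45 control reads and 8 drought reads, it is the member with the least depth. In the control library its level could not be told from the 6.41 TPM of CCoAOMT, since their TPM ratio was 1.16 with an interval of 0.764 to 1.75. In the drought library it was above only 17.4% of the unigenes with reads. The other unigene of its component, c30240.graph_c0, had 5 control reads and 4 drought reads, too few to give a direction (log2FC -0.45, interval -2.88 to 1.67). None of the other members' components holds a further unigene.

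The 4 CAD unigenes together had 1566 control reads and 309 drought reads. Their summed log2FC was -2.56 (interval -2.75 to -2.39), a 5.90-fold lower count in drought. The single CAD unigenes spanned log2FC values from -2.74 to -2.45, with a median of -2.56. Beside this, the median log2FC over the 20284 unigenes with at least 50 reads in both libraries together was -0.04. Of those unigenes, 3.80% had a log2FC as low as the weakest CAD unigene or lower, and 7.37% had one as high as CCoAOMT or higher.

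**Figure D2:**
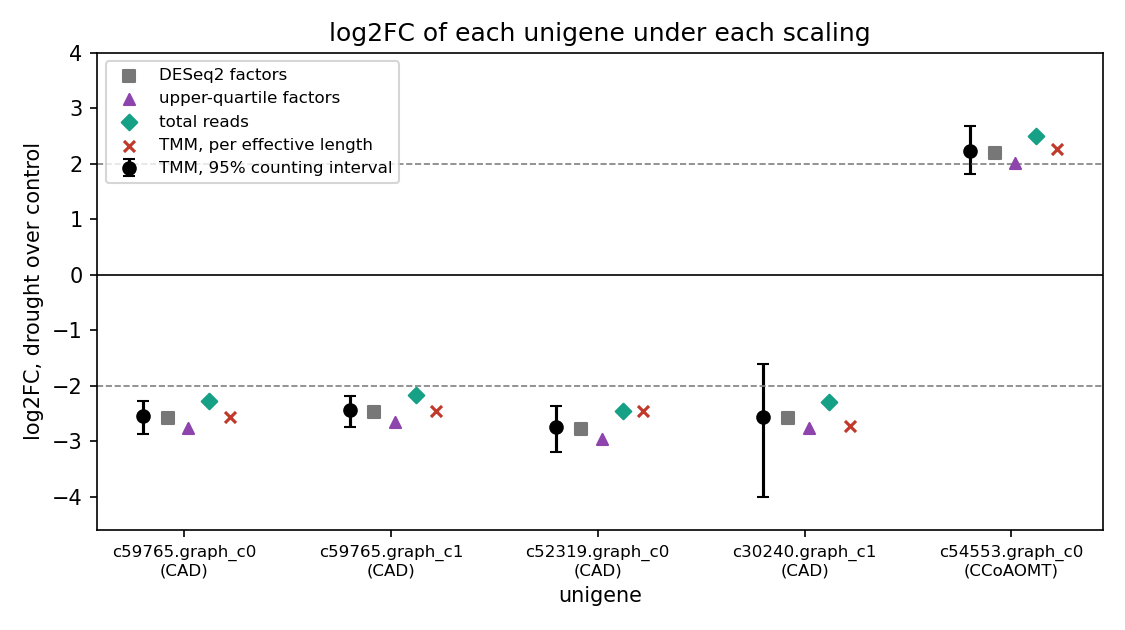
log2FC of drought over control for each unigene after TMM scaling (black points, bars are 95% counting intervals) and under the other scalings and the correction for effective length (coloured symbols). The correction for effective length is shown with no read added. Dashed lines mark log2FC values of 2 and -2. All symbols of the CAD unigenes lie below -2 and all those of CCoAOMT above 2, while the intervals of c30240.graph_c1 and CCoAOMT cross the lines.

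Applied to all 71410 unigenes with reads, the study's thresholds called all 4 CAD unigenes lower and CCoAOMT higher, with an exact binomial test on reads in place of the study's EBSeq model. With this test the same thresholds called 5.61% of all unigenes lower and 9.09% higher. The study reported fewer unigenes in either direction with EBSeq, so these shares belong to the binomial test and not to the study's calls. Among the unigenes with at least 50 reads, as all 5 members have, the shares were 5.56% and 8.46%. Because the members were chosen by these thresholds in the same libraries, nothing is read from their count. Of all calls 61.8% were higher in drought under TMM, 47.6% under upper-quartile factors and 75.8% with total reads alone. Relative to TMM, upper-quartile factors shifted every log2 ratio of scaled reads by -0.21 and total reads by 0.29. The values of all 5 members lay farther from 0 than either shift.

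**Figure D3:**
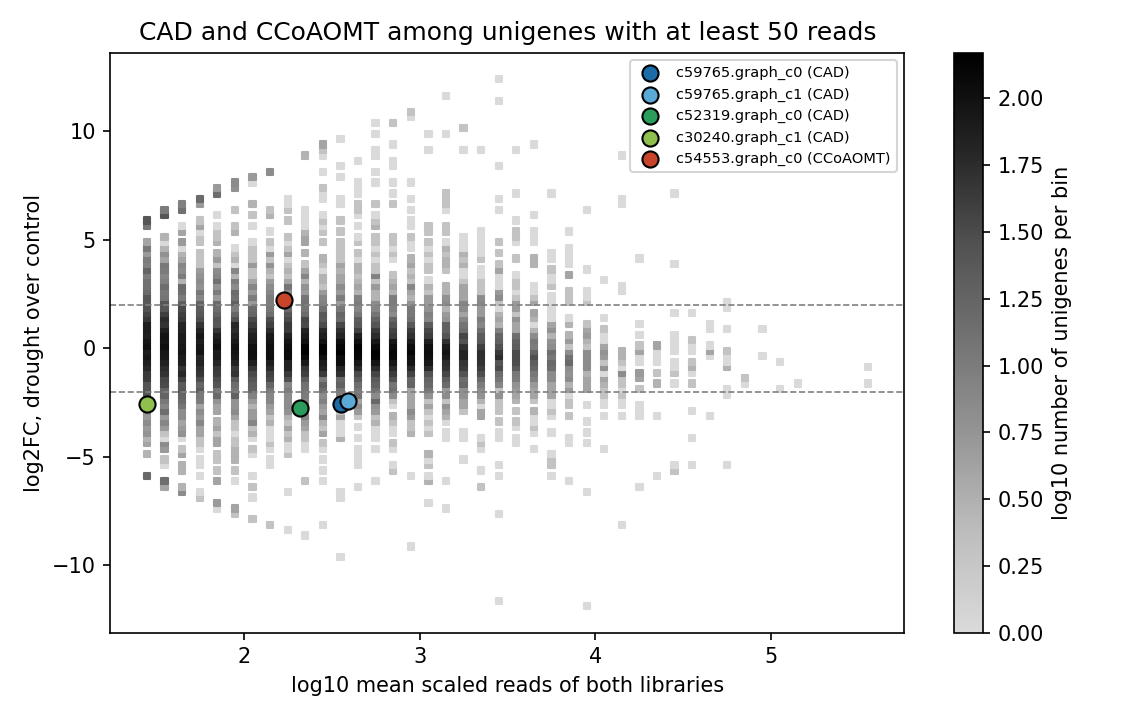
log2FC of drought over control against the log10 mean of scaled reads for the 20284 unigenes with at least 50 reads (grey squares, darker where a bin holds more unigenes on a log scale), with the 5 members as coloured points and dashed lines at 2 and -2. The CAD unigenes lie just below the lower line at -2.74 to -2.45 and CCoAOMT just above the upper line at 2.22, well inside the full range of log2FC.

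The extent of the fall could not be told apart between the CAD unigenes. In 6 of 6 pairs the interval of the difference in log2FC included 0. Every CAD unigene was listed because it passed the same fold threshold, so falls of similar size were in part fixed by the choice. The interval was narrowest for the c59765 pair, where c59765.graph_c0 minus c59765.graph_c1 was -0.11 with an interval of -0.53 to 0.30. For c59765.graph_c1 minus c52319.graph_c0 the difference was 0.30 with an interval of -0.19 to 0.82. The pairs with c30240.graph_c1 leave room for differences of more than 1 in log2FC, because of its 8 drought reads.

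The length assigned to c52319.graph_c0 differed between the libraries, which the choice of members did not use. Its mean length over 3 transcripts was 749.02 bp in the control table and 617.65 bp in the drought table, 17.5% shorter. The drought length rests on 58 reads, and no counting error was computed for it. Among 11106 unigenes with several transcripts and at least 50 reads in each library, the median change of length in either direction was 3.32%. These unigenes were not matched for depth to c52319.graph_c0, and 9.0% of them changed by as much as it or more. The lengths of its transcripts are not in the tables, so which of them took the reads is unknown. When each library's reads were divided by its own effective length and then scaled with TMM, the log2FC of c52319.graph_c0 was -2.46 in place of -2.74. On that scale c59765.graph_c1 was also at -2.46, c59765.graph_c0 at -2.57 and c30240.graph_c1 at -2.72. With no read added and no division by length they were at -2.45, -2.57 and -2.72, in the same order. The move of c30240.graph_c1 from -2.56 therefore comes from leaving out the added read, as its length did not change. The length of CCoAOMT changed by -1.90% in drought. Its log2FC per effective length was 2.27, against 2.24 with no read added and no division by length.

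The make-up of the CAD pool was close to the same in both libraries, as follows from falls of similar size. By TPM, c59765.graph_c0 made up 38.6% of the control pool and 37.0% of the drought pool. The share of c59765.graph_c1 was 34.9% in the control and 36.2% in drought, that of c52319.graph_c0 21.4% and 22.3%, and that of c30240.graph_c1 5.13% and 4.45%. The c59765 pair therefore held 73.4% of the control pool and 73.3% of the drought pool. By reads, the share of the pair was 75.5% of 1566 (exact interval 73.3% to 77.7%) in the control and 78.6% of 309 (73.6% to 83.1%) in drought, and these intervals overlap.

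Within each library the levels of the enzymes can be set against each other without any scaling between libraries. In the control library the summed CAD level was 22.6 times the CCoAOMT level (interval 17.3 to 30.1). In the drought library it was 0.821 times the CCoAOMT level (interval 0.699 to 0.965). A swing of this ratio was known when the unigenes were chosen. The study listed the CAD unigenes as lower and the CCoAOMT unigene as higher in these same libraries. These directions were also used in assigning identifiers to enzymes, so the swing is no test. Unigenes of either enzyme that did not pass the study's thresholds are not in the ratio, because the data give no gene names. The ratio thus compares these 5 unigenes and not the whole of each enzyme's transcripts. The unassigned c38538.graph_c0 passed the thresholds and is also left out. If it is a second CCoAOMT unigene, its 1.88 TPM would lower the control ratio, and its 0 TPM would leave the drought ratio unchanged. If the c59765 pair are parts of 1 transcript, the summed CAD level counts it more than once, and the ratios of 22.6 and 0.821 are too high. If c59765.graph_c0 alone is taken for CAD, the ratio was 8.71 in the control (interval 6.60 to 11.7) and 0.304 in drought (interval 0.243 to 0.379). The order of the 5 unigenes changed with this, from CCoAOMT at the lowest value in the control library, next to c30240.graph_c1, to CCoAOMT above every CAD unigene in the drought library.

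**Figure D4:**
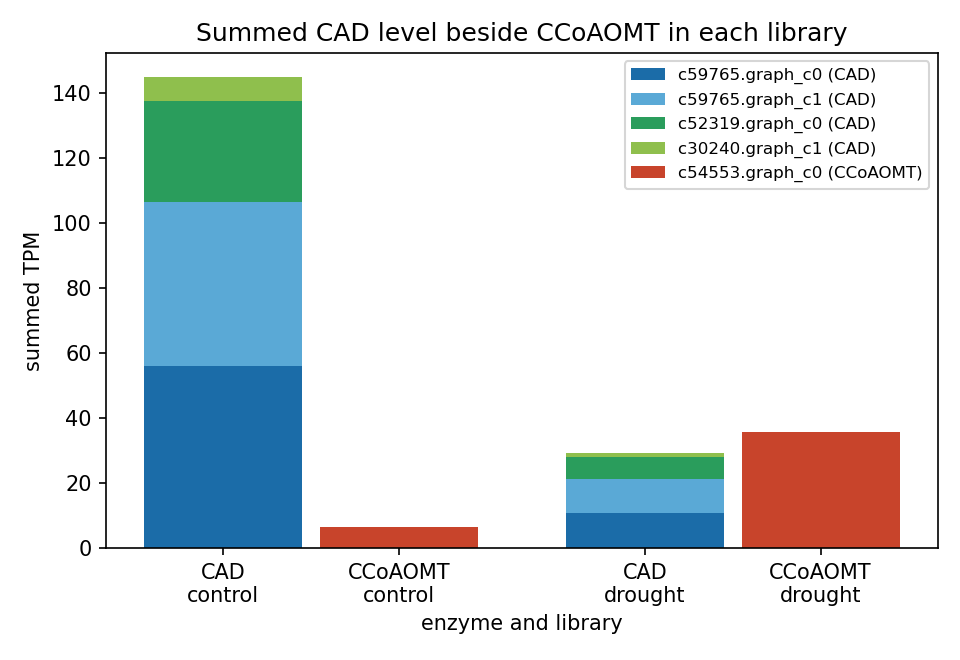
Summed TPM of the 4 CAD unigenes (stacked by unigene) beside the TPM of the CCoAOMT unigene in the control and the drought library. The CAD stack is 144.89 TPM in the control and 29.22 TPM in drought, with similar proportions in both, and the CCoAOMT bar goes from 6.41 to 35.58 TPM.

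The other 5 unigenes that the study names for this pathway or as peroxidases were also chosen from these libraries. Of the 5, 4 peroxidase unigenes rose and the unassigned c38538.graph_c0, a peroxidase or a second CCoAOMT unigene, fell. The peroxidase unigene c28269.graph_c0 had the highest level of all 10 in drought, with 16.86 TPM in the control library and 148.96 TPM in the drought library. The levels of c57806.graph_c0 were 2.78 and 36.10 TPM, so that in drought it stood beside CCoAOMT at 35.58 TPM. The remaining peroxidases, c57081.graph_c1 and c63278.graph_c2, were at 1.34 and 1.04 TPM in the control and at 15.23 and 22.63 TPM in drought. The unigene c38538.graph_c0 had 19 control reads (1.88 TPM) and 0 drought reads. With a floor of 3 reads in place of the 0 it was 7.40-fold lower in drought. The counting interval of its log2FC reached up to -2.45, a smaller fall than that ratio. In all, 5 of the 10 unigenes were called higher and 5 lower, beside 9.09% and 5.61% of all unigenes with reads. Because the study listed all 10 for passing its thresholds in these libraries, nothing is read from this count.

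The unigene whose levels were most like those of c59765.graph_c1 was c52403.graph_c0, at 50.93 TPM in the control library and 10.28 TPM in the drought library. Likeness was measured over the 2 libraries as the distance between pairs of log2 TPM values after adding 0.1, and this distance was 0.04. Within a distance of 0.5 there were 91 unigenes. For CCoAOMT the nearest was c63584.graph_c0, at 6.18 and 35.10 TPM, at a distance of 0.06, with 123 unigenes within 0.5. The tables pair neither of them with a gene name.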

How the data were processed

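Per the labels the RNA came from leaf blades, and per the study's methods the RNA of 3 plants per condition was pooled; the filtered reads of both libraries were assembled by the authors with Trinity. Each deposited table holds unigene lengths (full and effective, in bp), the authors' expected counts (estimated reads per unigene, not normalized), and the FPKM and TPM values that the authors derived from them by scaling for length and library size. The submitters' processing notes name Bowtie 0.12.2, Cufflinks and the mouse build mm8 with no role, and the sources used here do not give the quantifier.

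Expected counts were rounded. Scaling factors came from edgeR 4.0.16 (TMM, upper quartile) and DESeq2 1.42.0 in R 4.3.3. log2FC was taken as log2 of drought over control with 1 added to either scaled number of reads. Its interval was converted from the exact Clopper-Pearson interval for the share of a unigene's reads that came from drought, with no read added. Differences between unigenes use the exact conditional odds ratio. Calls required a log2FC of 2 in either direction and a Benjamini-Hochberg adjusted p below 0.01 (two-sided exact binomial test over 71410 unigenes, SciPy 1.17.1). No p of a single unigene is given. The calling procedure was also run on simulated data, as a check of the procedure only. Simulated data hold no information on how these plants vary, so nothing about the members is read from that run. PCR copies count as separate reads. For the fold of a unigene with a count of 0, that count was replaced by a floor of 3 reads, and the resulting ratio leaves out the counting error of the other library.

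The members, lists and tests were chosen with earlier results of these data known. Named unigenes are the 5 members, the study's other phenylpropanoid and peroxidase unigenes, unigenes of the members' components, and the nearest unigene by TPM to c59765.graph_c1 and to CCoAOMT. Alternatives were other scalings, pseudocounts of 0.01 and 5, FPKM and TPM, minimum reads and fold thresholds. Division by effective length, which used no added read, was included after the data were seen. EBSeq and qRT-PCR values were not used here, and no member sequence was printed.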

Additional observations from a re-analysis of the deposited data

How the results depend on the processing

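No paired analysis was possible because each condition has 1 library, and no library could be left out. The direction of all 5 members held under every scaling, pseudocount and unit that was tried, and 34 of 40 such values stayed within the counting interval of the log2FC. Because the members were chosen past a log2FC of 2, these alternatives could hardly have reversed a direction. With total reads the log2FC was -2.27 for c59765.graph_c0, -2.16 for c59765.graph_c1 and -2.27 for the CAD sum, and upper-quartile factors gave -2.77 for the sum. With FPKM the values were -2.27 for c59765.graph_c0, -2.16 for c59765.graph_c1 and -2.15 for c52319.graph_c0. TPM gave -2.24 for c52319.graph_c0 and -2.31 for the sum. CCoAOMT came closest to its threshold under upper-quartile factors, at 2.01. The ratio of CAD to CCoAOMT with the most abundant CAD unigene alone was 8.71 in the control and 0.304 in drought.

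All 5 members were called under 6 of 8 alternatives. A minimum of 10 reads in each library left 4, because c30240.graph_c1 has 8 drought reads, and a log2FC threshold of 3 left 0 members. Over all unigenes, 4009 were called lower and 6494 higher. At least 50 reads gave 1128 and 1717, at least 10 reads in each library 842 and 1029, a threshold of 1 gave 6366 lower, and total reads 2648 lower. By reads and not TPM, c59765.graph_c1 held 42.4% of the CAD pool in drought and 39.3% in the control, and c30240.graph_c1 2.59% and 2.87%, since longer unigenes collect more reads. Depth limits c30240.graph_c1 most, and variation between plants is not covered by any value.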
